A study of Mus musculus with 20 samples.

Results

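A set of 9 genes of neutrophil granules and of the neutrophil surface (Camp, Ngp, Pglyrp1, Mpo, Csf3r, Cxcr2, Fpr1, Itgam and Itgb2) were followed in whole mouse tracheas before and after a chemical injury. They were chosen by name, as every non-control probe whose gene name on the array was one of these 9 (Cxcr2 is written there under its older name Il8rb). This gave 9 of the 27385 gene names and 11 of the 41174 different probes on the array, with 2 probes each for Cxcr2 and Itgam and 1 for each of the other 7 genes. RNA of 20 whole tracheas was hybridised, 1 per one-colour array, in 4 groups of 5. The groups were uninjured wild-type (WT-control), uninjured Myd88KO (KO-control), and wild-type and Myd88KO tracheas taken 3 days after 2% polidocanol (WT-injury and KO-injury). Polidocanol is a detergent that strips the surface epithelium, and Myd88 is the adaptor that carries signals from most Toll-like receptors and from the interleukin-1 receptor family. The labels give all 20 mice as C57/Bl6 animals of 4 months, and the study's methods give 4 to 6 months, both sexes, and a knockout kept as a colony of its own after back-crossing for 6 generations. The study's methods call the 5 samples of a group biological replicates.

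Neutrophils carry ready-made granules into tissue. Most granule proteins, such as myeloperoxidase (Mpo) of the azurophil granules and the cathelicidin precursor (Camp) and neutrophilic granule protein (Ngp) of the specific granules, are transcribed while the cell matures in the bone marrow, and the transcripts decline before the cell enters the blood. Receptors for growth factor (Csf3r), chemokine (Cxcr2) and bacterial formyl peptides (Fpr1) and the integrin chains alpha M (Itgam) and beta 2 (Itgb2), which pair as CD11b/CD18 for firm adhesion, are still transcribed in mature neutrophils. None of the 9 is exclusive to neutrophils: Itgam and Itgb2 are also carried by monocytes and macrophages, and airway epithelium and glands make several antimicrobial proteins found in granules.

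The windows just upstream of the start sites of 4 surface genes are shown because these genes moved together across the arrays. RefSeq promoter entries (GRCm38.p6) were matched by symbol for 8 of the 9 genes, all but Itgb2. Each line gives the 250 bases before the start site, 5′ to 3′ in the gene's orientation, with matches to GAGGAA (the core bound by the myeloid factor PU.1) or TTNNGNAA (a C/EBP-type sequence) in capitals, searched on both strands.
Csf3r (chr4:126024409-126024658, plus strand): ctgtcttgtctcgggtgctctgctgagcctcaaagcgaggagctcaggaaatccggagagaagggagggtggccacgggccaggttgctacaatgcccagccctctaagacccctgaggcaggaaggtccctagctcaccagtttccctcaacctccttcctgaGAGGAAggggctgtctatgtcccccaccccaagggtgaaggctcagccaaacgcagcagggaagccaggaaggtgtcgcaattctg
Cxcr2 (chr1:74153744-74153993, plus strand): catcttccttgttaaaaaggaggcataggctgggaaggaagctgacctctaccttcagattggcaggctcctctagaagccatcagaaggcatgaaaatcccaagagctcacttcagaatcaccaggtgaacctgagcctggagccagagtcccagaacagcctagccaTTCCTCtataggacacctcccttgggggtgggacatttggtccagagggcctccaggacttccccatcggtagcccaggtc
Fpr1 (chr17:17883940-17884189, minus strand): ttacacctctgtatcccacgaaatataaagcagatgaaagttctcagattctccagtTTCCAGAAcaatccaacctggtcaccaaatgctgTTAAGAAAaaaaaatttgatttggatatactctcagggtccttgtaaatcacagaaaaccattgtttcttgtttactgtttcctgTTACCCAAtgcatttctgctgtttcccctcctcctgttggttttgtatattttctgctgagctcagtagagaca
Itgam (chr7:128062390-128062639, plus strand): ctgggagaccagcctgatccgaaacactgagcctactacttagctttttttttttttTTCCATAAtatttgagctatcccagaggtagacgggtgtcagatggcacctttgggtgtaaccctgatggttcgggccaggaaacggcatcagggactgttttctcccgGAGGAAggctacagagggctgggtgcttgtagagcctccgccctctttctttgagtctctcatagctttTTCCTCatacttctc
GAGGAA or its complement occurred in the windows of Csf3r and Cxcr2 (1 match each) and of Itgam (2 matches), against 23.3% of all 32851 promoter windows of this length. TTNNGNAA occurred in those of Itgam (1 match) and Fpr1 (3 matches), against 36.8% of all windows. No base belonged to matches of both kinds in these 4 windows. Among the granule genes, Pglyrp1 and Mpo had 2 GAGGAA matches each, Ngp had 3 TTNNGNAA matches, and the Camp window held neither. These are matches of letters, with no measure of binding.

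Values are log2 intensities relative to the 75th percentile of the array, so that 0 is the brightness of that percentile, and each unit is a doubling. A spot was called well above background by the scanner software, which was so for 57.5% to 67.8% of the spots of an array. Testing needed such a call on 10 or more of the 20 arrays, which 26063 probes, 8 of the 11 member probes among them, met. A probe was called differentially expressed at an adjusted p below 0.01 in limma (Benjamini-Hochberg, over the 26063 probes). The Myd88 probe was bright in every group (1.94 to 2.28 in WT-control, 1.60 to 2.04 in KO-control, 2.36 to 2.80 in WT-injury and 1.54 to 2.09 in KO-injury). It was called lower in KO-injury than in WT-injury (-0.765, adjusted p 0.00824 in limma), and was not called between uninjured genotypes (-0.212). Whether this probe lies in the deleted part of the gene is not given in the sources used here, so it did not check the knockout label. All 7 trachea markers examined, from epithelial Epcam and Krt5 to cartilage Col2a1 and smooth muscle Acta2, were well above background on every WT-control, KO-control and WT-injury array. In KO-injury all 7 were so on replicates 1 to 4, and 6 on replicate 5, whose Scgb1a1 spot was left out. KO-injury 5 also had the lowest share of spots well above background (57.5%). In the alternative fit with array weights, KO-injury 1 and 5 had the lowest weights (0.320 and 0.323).

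The injured Myd88KO arrays were unlike each other, and 1 of them, replicate 5, showed little of the wild-type injury pattern. Scgb1a1, the secretoglobin of club cells in the surface epithelium, was at 6.98 to 7.93 in WT-control and at 7.65 to 8.25 in KO-control. It was at -1.16 to -0.08 on all 5 WT-injury arrays. In KO-injury it was at 4.79, -0.84, 2.72 and 0.18 in replicates 1 to 4, and the spot of replicate 5, which the software had marked as an outlier and which the fits leave out, was at 7.56. Replicates 2 and 4 thus lay in or next to the wild-type injured range, and the array labelled KO-injury 5 stayed where uninjured arrays were. The same order appeared over the 1368 non-member probes that differed between injured and uninjured wild-type tracheas. The median share of the wild-type difference that an injured Myd88KO array showed, measured from the KO-control mean, was 0.31, 0.95, 0.38, 0.91 and -0.05 in replicates 1 to 5, and 38.6% of these probes moved in the wild-type direction in replicate 5 against 98.7% in replicate 2. Results of the members that use KO-injury are therefore given with and without the array labelled KO-injury 5. This choice was made after the values were seen. Leaving out an array that lacks the injury pattern favours calls in Myd88KO injury. The replicate number is also the slide, with 1 array of each group on each of the 5 slides, and slides 2, 3 and 4 were scanned on 1 day and slides 1 and 5 on another.

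**Figure D1:**
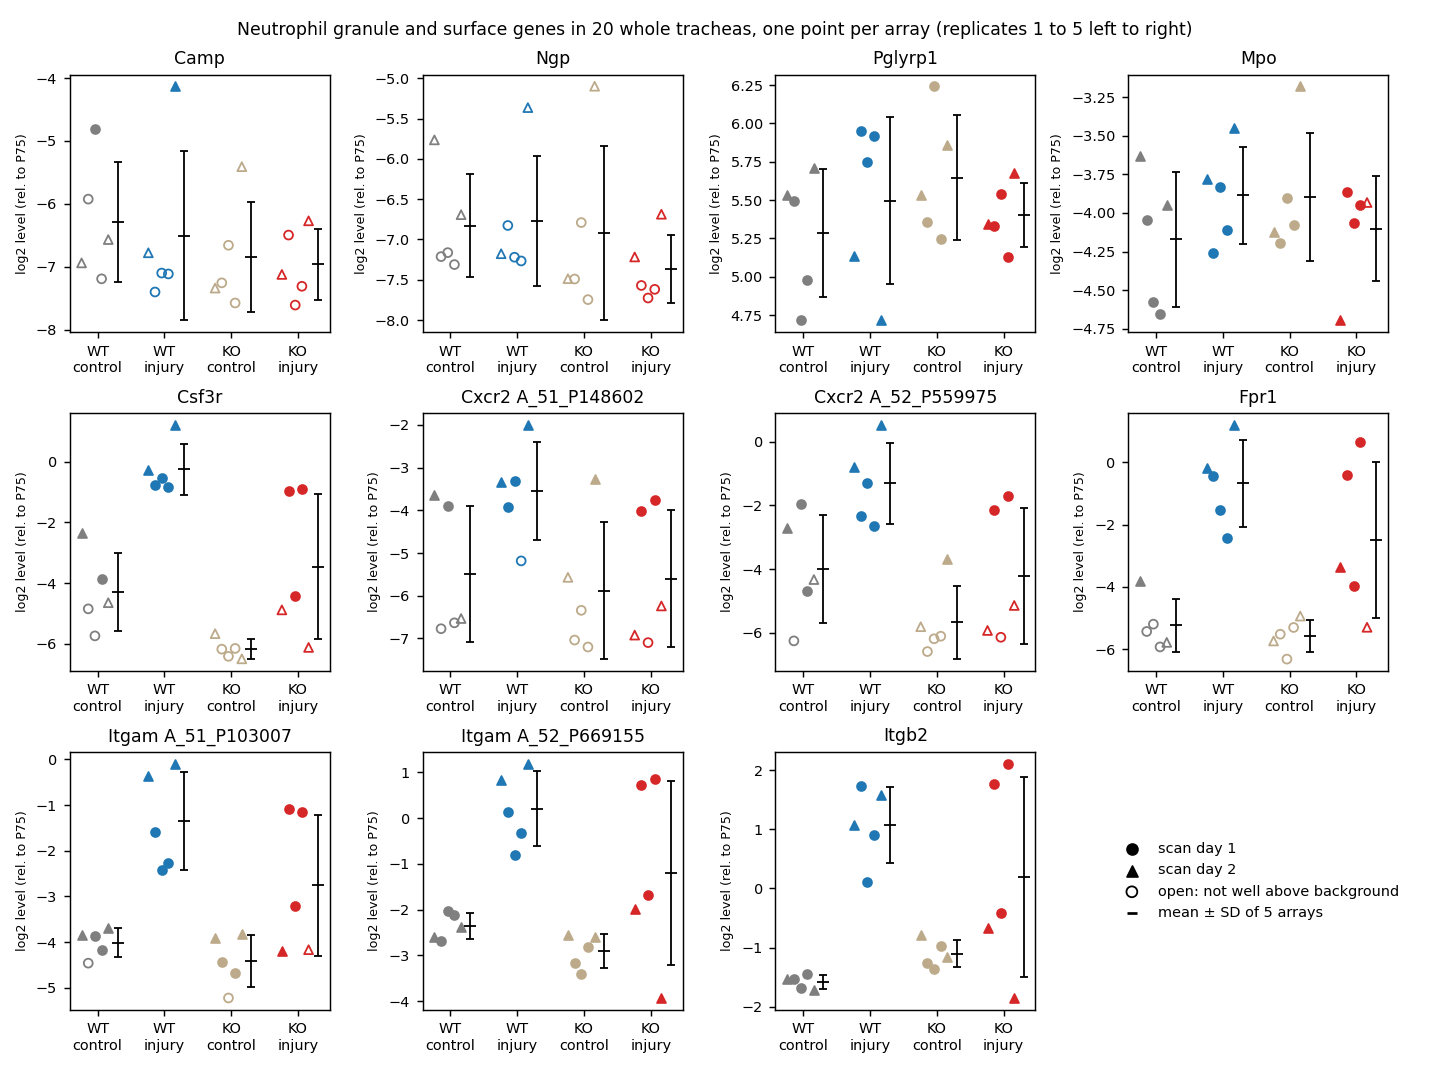
Levels of the 11 probes on the 20 arrays, in log2 units relative to the 75th percentile of the array (P75), with 1 panel per probe and 1 point per array; circles are scan day 1, triangles scan day 2, open symbols spots not well above background, and the bar is the mean ± SD of 5 arrays. The surface gene panels (Csf3r to Itgb2) show raised WT-injury arrays and a KO-injury group split between replicates 2 and 4 near the wild-type injured level and the rest lower, while the 4 granule gene panels show no such shift.

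In wild-type tracheas 4 probes of neutrophil surface genes rose after injury, a count that was 2 without WT-control 2, WT-injury 1, WT-injury 2 or WT-injury 5. Neither of the 2 granule members that could be tested, Pglyrp1 and Mpo, was called, although 3 granule genes outside the members (Chil3, Lcn2 and Mmp9) rose in the same comparison. Of the 8 tested member probes, 4 rose (Csf3r, Fpr1, Itgb2 and 1 of the Itgam probes) and none fell, where 3.24% of all 26063 tested probes were called higher and 2.03% lower. The groups did not overlap for 5 of the 8, each higher after injury, where 7.89% of all tested probes separated in that way. The median difference over the 8 was 2.66, and over all tested probes it was 5.85e-05. Csf3r and Fpr1 passed the filter with the least possible number of arrays, 5 of the 10 being WT-injury, so that the filter itself favoured a difference for them. With every probe on the array tested instead, Csf3r, Fpr1, Itgb2 and Itgam probe A_51_P103007 kept adjusted p-values of 0.00552, 0.00381, 0.00492 and 0.00828. In RNA of whole tissue, more cells of a type and more RNA per cell cannot be told apart, and Itgam and Itgb2 are also genes of macrophages, whose markers rose on the same arrays (5 of 10 called, among them Cd68 by 3.27 and Adgre1 by 2.03). The part of macrophages in these values was not tested.

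Csf3r encodes the receptor for granulocyte colony-stimulating factor, which drives the production and survival of neutrophils. In WT-control its level was -2.34, -4.85, -5.75, -3.85 and -4.65 in replicates 1 to 5, of which replicates 1 and 4 were well above background. In WT-injury it was -0.25, -0.77, -0.53, -0.85 and 1.21. Each injured array was above each uninjured array, and replicate 5 stood highest. The log2 difference was 4.05 ± 0.83 (SE, 5 arrays a group), with an adjusted p of 0.00380 in limma. With 3 of the 5 uninjured values not well above background, its size depended on the background correction, and with normexp correction it was 2.44 (adjusted p 0.00150). Csf3r was not called when WT-control 2, WT-injury 1 or WT-injury 5 was left out.

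Fpr1 is the receptor with which neutrophils sense formylated peptides of bacteria and mitochondria. Its level was -3.80, -5.43, -5.20, -5.93 and -5.78 in WT-control, where replicate 1 alone was well above background. In WT-injury it was -0.17, -0.43, -1.53, -2.44 and 1.20. The groups did not overlap, and the log2 difference was 4.55 ± 0.88 (SE), with an adjusted p of 0.00248 in limma. With 4 of the 5 uninjured values not well above background, its size depended on the background correction, and with normexp correction it was 2.31 (adjusted p 0.00931).

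Cxcr2, the receptor for the neutrophil-attracting CXC chemokines, was measured by 2 probes, placed by the files at chr1:74401999-74402058 and chr1:74402562-74402621 of a mouse build that they do not name. The brighter of them, A_52_P559975, was at -2.72, -6.26, -1.97, -4.68 and -4.33 in WT-control and at -0.78, -2.32, -1.31, -2.64 and 0.52 in WT-injury. The groups overlapped, since replicates 1 and 3 of the uninjured tracheas were already within or close to the injured range. The difference of 2.68 ± 0.93 (SE) was not called (adjusted p 0.0647 in limma), and with normexp correction it was 1.496. The other probe, A_51_P148602, was well above background on 9 of the 20 arrays and was not tested across all probes. It was at -3.63, -6.77, -3.90, -6.63 and -6.53 in WT-control and at -3.34, -3.92, -3.31, -5.18 and -2.004 in WT-injury, a difference of 1.94 (two-sided exact permutation p 0.0635, 0.381 after adjustment over the 12 such tests of the untested members, with 0.00794 the smallest possible). Both Cxcr2 probes had the same uninjured wild-type arrays, replicates 1 and 3, above the others.

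Itgam and Itgb2 encode the chains of the CD11b/CD18 integrin. Itgb2 is shared by all beta 2 integrins. It was at -1.53, -1.54, -1.68, -1.44 and -1.72 in WT-control and at 1.06, 1.72, 0.10, 0.90 and 1.58 in WT-injury. The difference was 2.66 ± 0.53 (SE), a 6.32-fold change, with an adjusted p of 0.00332 in limma, and all 10 values were well above background. Without WT-injury 2 the adjusted p was 0.0103, and Itgb2 was not called. Itgam probe A_51_P103007 went from -3.85, -4.46, -3.87, -4.18 and -3.69 to -0.36, -1.58, -2.42, -2.27 and -0.10, a difference of 2.66 ± 0.58 (SE) with an adjusted p of 0.00555. Itgam probe A_52_P669155 went from -2.60, -2.67, -2.04, -2.12 and -2.37 to 0.83, 0.13, -0.81, -0.32 and 1.18, a difference of 2.57 ± 0.65 (SE). For both probes every injured array was above every uninjured one, but the adjusted p of the second was 0.0131 and it was not called. With normexp correction and by the methods' one-way test with adjustment it was the second probe that was called and not the first, and the normexp differences were 1.51 and 2.10. The call of the first was also lost without any 1 of WT-control 1, 2, 4 and 5 and WT-injury 1, 2 and 5 (adjusted p up to 0.0182). All groups share 1 estimate of the spread in the fit. Without the array labelled KO-injury 5 the second probe, A_52_P669155, was called too (adjusted p 0.00147), with 4.45% of all tested probes then called higher.

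The granule members were not called. Pglyrp1, a peptidoglycan-binding protein of granules, was bright in all tracheas, uninjured ones included. Which cells gave this signal was not tested. It was at 5.53, 5.49, 4.72, 4.98 and 5.71 in WT-control and at 5.14, 5.95, 5.75, 5.92 and 4.72 in WT-injury. The difference was 0.21 (95% interval -0.32 to 0.74) with an adjusted p of 0.644 in limma. A doubling of the whole-tissue signal lay outside the interval, which does not bound a change in neutrophils alone. Mpo was dim but well above background on 19 of the 20 arrays, at -3.63, -4.04, -4.58, -4.66 and -3.94 in WT-control and at -3.78, -4.26, -3.83, -4.11 and -3.45 in WT-injury. Its difference was 0.29 (95% interval -0.21 to 0.78) with an adjusted p of 0.478. Camp and Ngp were near background throughout. Camp was well above background on 2 arrays, WT-control 3 at -4.81 and WT-injury 5 at -4.13, and elsewhere lay between -7.61 and -5.41. Ngp was well above background on none of the 20, between -7.75 and -5.10, and no change of either gene can be read from these arrays.

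**Figure D2:**
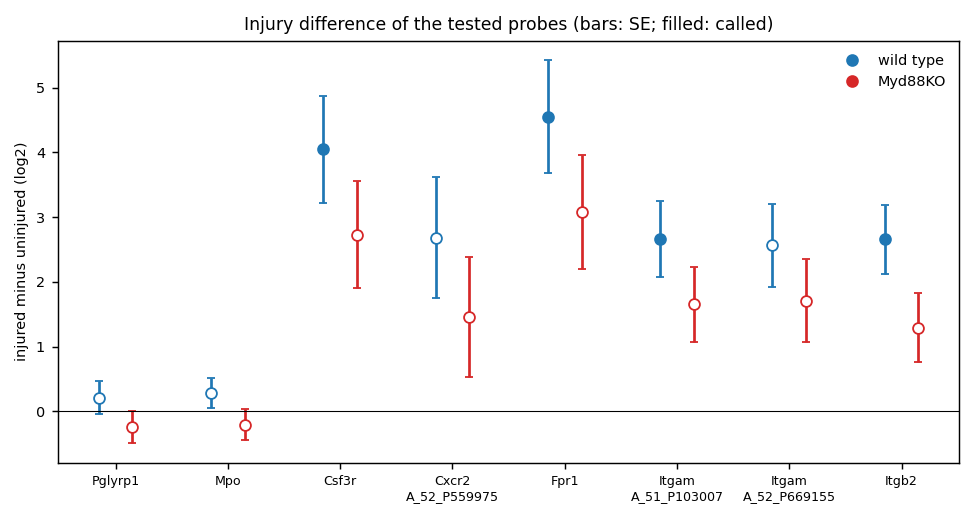
Difference between injured and uninjured tracheas for the 8 tested member probes, in log2 units with the SE of the limma fit, for wild-type (blue) and Myd88KO (red); filled points were called at an adjusted p below 0.01. Of the 8 wild-type points 4 are filled and of the Myd88KO points none, and Pglyrp1 and Mpo lie near 0 in both.

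In Myd88KO tracheas the same 6 surface probes pointed upwards after injury but none of the 8 tested member probes was called, with 5 at an unadjusted p below 0.05 and a smallest adjusted p of 0.0591. Of all tested probes, 0.376% were called in this comparison and 0.134% called higher. Without the array labelled KO-injury 5, 3 of the 8 were called higher (Csf3r, Fpr1 and Itgam probe A_52_P669155), as were 1.87% of all probes. That array was singled out for its lack of the injury pattern, so leaving it out favoured calls in this comparison. With all 20 arrays, the median difference over the 8 was 1.56, against -0.07 over all tested probes.

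Csf3r was well above background on no KO-control array, at -5.67, -6.18, -6.42, -6.16 and -6.50. In KO-injury it was at -4.89, -0.96, -4.42, -0.91 and -6.13, and so had 2 arrays beside the wild-type injured level, 2 that stood slightly above the uninjured ones and 1, replicate 5, among them. The dim group was taken at the lowest signal that was well above background. With the scanner software's background subtraction, the lower limit of the Csf3r difference in group means was then 2.94-fold, with no allowance for the spread between arrays. It was 4.66-fold without KO-injury 5, 1.90-fold without KO-injury 2 and 1.89-fold without KO-injury 4. The fitted difference of 2.73 ± 0.83 (SE; 95% interval 0.997 to 4.46 in log2 units) had an adjusted p of 0.0752 in limma. Without KO-injury 5 it was 3.39 with an adjusted p of 0.00863. With normexp correction it was 1.11 (adjusted p 0.185 in limma). This is a smaller change than 2.94-fold, so that limit holds only for the scanner software's subtraction.

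Fpr1 was also below that mark on all 5 KO-control arrays (-5.74, -5.52, -6.32, -5.31 and -4.94). In KO-injury it was at -3.38, -0.40, -3.98, 0.64 and -5.30. With the scanner software's background subtraction the lower limit of its difference in group means was 5.70-fold, 9.28-fold without KO-injury 5 and 3.32-fold without KO-injury 4. These limits make no allowance for the spread between arrays. Replicate 5 again lay among the uninjured arrays, and its spot was not well above background. The fitted difference was 3.08 ± 0.88 (SE; 95% interval 1.25 to 4.92 in log2 units) with an adjusted p of 0.0591 in limma. Without KO-injury 5 it was 3.79 with an adjusted p of 0.00628. With normexp correction it was 1.49 (adjusted p 0.148 in limma). This is a smaller change than these limits, which thus hold only for the scanner software's subtraction.

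The integrin chains also had replicates 2 and 4 highest. Itgb2 was at -0.79, -1.26, -1.35, -0.97 and -1.15 in KO-control and at -0.67, 1.77, -0.41, 2.10 and -1.85 in KO-injury. Replicates 2 and 4 were above every wild-type injured array, and replicate 5 was below every uninjured Myd88KO array. The difference of 1.29 ± 0.53 (SE) had an adjusted p of 0.190, and 1.80 with an adjusted p of 0.0163 without KO-injury 5. Without KO-injury 4 it was 0.814. Itgam probe A_51_P103007 went from -3.92, -4.43, -5.22, -4.67 and -3.82 to -4.19, -1.08, -3.21, -1.15 and -4.17 (1.65 ± 0.58, adjusted p 0.123 in limma). Itgam probe A_52_P669155 went from -2.55, -3.17, -3.41, -2.82 and -2.61 to -1.98, 0.73, -1.69, 0.86 and -3.93 (1.71 ± 0.65, adjusted p 0.152). Without KO-injury 5 these became 2.00 with an adjusted p of 0.0313 and 2.39 with one of 0.00624. Over the processing alternatives the first ran from 0.898 to 2.35 and the second from 1.38 to 2.56. Cxcr2 probe A_52_P559975 was at -5.81, -6.59, -6.19, -6.11 and -3.67 in KO-control and at -5.93, -2.16, -6.15, -1.70 and -5.15 in KO-injury. Only replicates 2 and 4 exceeded all uninjured Myd88KO arrays, and the difference of 1.46 ± 0.93 (SE) had an adjusted p of 0.409, which became 0.290 without KO-injury 5. Without KO-injury 4 this difference was 0.832, and over the processing alternatives it ran from 0.538 to 2.33.

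Over the 6 tested surface probes, replicates 2 and 4 of KO-injury were the highest pair for all 6. Their median change from the KO-control mean was 3.58 and 3.87. In wild-type tracheas the 5 medians, measured from the WT-control mean, ran from 2.18 to 4.21. In the other injured Myd88KO arrays it was 0.69 (replicate 1), 1.21 (replicate 3) and 0.15 (replicate 5), and replicate 5 exceeded all uninjured Myd88KO arrays for 0 of the 6 probes. This order of the injured Myd88KO arrays was the reverse of their Scgb1a1 order, except that replicate 4 was ahead of replicate 2 in the surface genes but had the slightly higher Scgb1a1. The part of the extent of injury in the surface gene levels was not tested. Pglyrp1 was at 5.35, 5.33, 5.54, 5.13 and 5.68 in KO-injury, highest in replicate 5 and lowest in replicate 4, where the surface genes were lowest and highest. Mpo was at -4.70, -3.87, -4.07, -3.95 and -3.93. Their differences from KO-control were -0.24 and -0.21 (adjusted p 0.646 and 0.677 in limma), and -0.31 and -0.25 without KO-injury 5 (adjusted p 0.496 and 0.568).

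**Figure D3:**
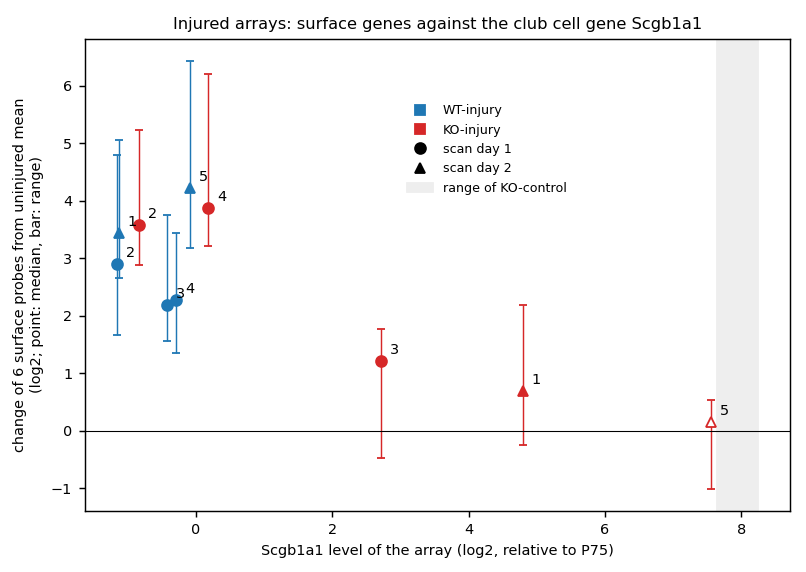
Change of the 6 tested surface probes on each of the 10 injured arrays (vertical axis, log2; the point is the median of the 6 and the bar their range, measured from the mean of the uninjured arrays of the genotype) against the level of Scgb1a1 on that array (horizontal axis, log2 relative to P75), numbered by replicate; the open symbol is the outlier spot of KO-injury 5, and the grey band is the range of KO-control. All wild-type arrays lie at Scgb1a1 levels below 0 with medians of at least 2.18, and the Myd88KO arrays run from 2 beside them to replicate 5 at 7.56 and 0.15.

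The wild-type differences of the surface genes kept their direction on every slide. On each of the 5 slides the WT-injury array exceeded the WT-control array for all 6 tested surface probes and for the other Cxcr2 probe. For Csf3r these slide differences were 2.09, 4.08, 5.21, 3.00 and 5.86, and for Itgb2 they were 2.60, 3.26, 1.78, 2.34 and 3.31. In Myd88KO the slide differences of Csf3r were 0.79, 5.22, 2.00, 5.25 and 0.38, where both arrays of slides 1 and 5 were not well above background, and those of Itgb2 were 0.12, 3.03, 0.94, 3.07 and -0.70. The scan days divided the Myd88KO values only in part. Slides 2, 3 and 4 were of day 1, but slide 3 lay below slides 2 and 4 for each of the 6 probes. On day 1 the mean Myd88KO differences of the 6 probes ran from 2.35 to 4.47, and on day 2, which had 2 arrays a group, from -0.795 (Cxcr2) to 1.00 (Fpr1). In wild-type they ran from 1.95 to 4.10 on day 1 and from 2.95 to 5.30 on day 2. Fits of 1 scan day alone, also chosen after the values were seen, called 1 member probe higher in wild-type on day 1 (Csf3r) and 2 on day 2 (Itgb2 and Itgam probe A_51_P103007), where 2.00% and 1.04% of all probes were called higher. In Myd88KO they called 3 on day 1 (Csf3r and both Itgam probes), where 1.80% of all probes were called higher, and none on day 2. A shift shared by the arrays of a slide cancels in the slide differences. With 1 Myd88KO pair a slide, an effect of slide or day on that pair alone cannot be told apart from the animals. With slide as a block, Itgam probe A_51_P103007 was no longer called in wild-type (adjusted p 0.0109), which left 3 member probes called, and no member probe was called in Myd88KO.

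**Figure D4:**
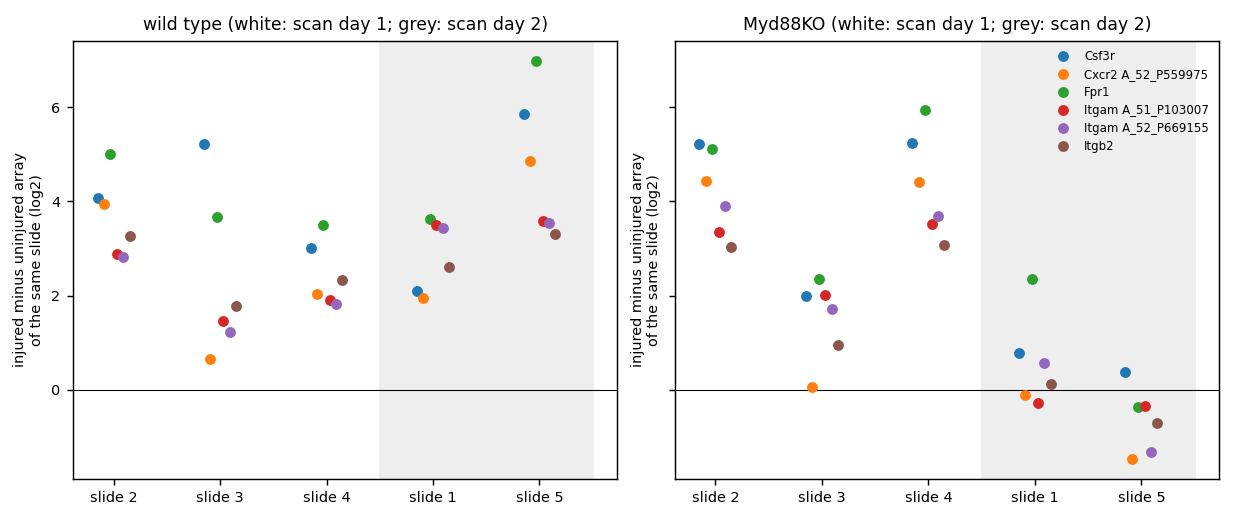
Difference between the injured and the uninjured array of the same slide for the 6 tested surface probes, in log2 units, in wild-type (left) and Myd88KO (right); slides are ordered by scan day, white for day 1 and grey for day 2. All wild-type differences are above 0, and the Myd88KO differences of slides 1 and 5 lie between -1.47 and 2.36.

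Between uninjured genotypes no member difference passed the threshold. None of the 8 tested member probes was called between KO-control and WT-control (1 had an unadjusted p below 0.05), where 0.384% of all tested probes were called in either direction. Csf3r differed by -1.90 ± 0.83 (SE) in Myd88KO, with an adjusted p of 0.790 in limma (95% interval -3.63 to -0.17). It was well above background on 2 wild-type arrays and on no Myd88KO array, so this size is uncertain, and with normexp correction the difference was -0.59. Itgb2 was the only member whose groups did not overlap, in a direction in which 1.71% of all tested probes separated. It was higher in Myd88KO by 0.48 ± 0.53 (SE; adjusted p 0.9996 in limma). This SE uses a spread shared by all groups. The SD of Itgb2 was 0.115 in WT-control and 0.228 in KO-control, but 1.69 in KO-injury. Itgb2 was higher in Myd88KO on each of the 5 slides, by 0.281 to 0.747, and Cxcr2 probe A_52_P559975 differed by -1.69 ± 0.93 (SE) and was lower on 4 of 5. Csf3r was lower in Myd88KO on all 5 slides, with differences from -3.33 to -0.675, most of them between spots not well above background. The methods' one-way test on these groups alone gave Itgb2 an adjusted p of 0.213. Camp and Ngp lie on chromosome 9 at 9.47 and 8.90 Mb from the Myd88 probe, in the coordinates of the files, and neither was well above background on more than 1 array of a group.

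After injury the Myd88KO tracheas were lower on average for all 6 surface probes, but none of the 8 tested member probes was called. Of the 8, 4 had an unadjusted p below 0.05, and 0.380% of all tested probes were called in either direction. The largest difference was that of Csf3r, at -3.22 ± 0.83 (SE; adjusted p 0.0879 in limma). It was also the only member whose groups did not overlap, in a direction in which 1.26% of all tested probes separated, and its 2 highest Myd88KO arrays (-0.96 and -0.91) ended just under the lowest wild-type one (-0.85). Cxcr2 probe A_52_P559975 differed by -2.91 ± 0.93 (adjusted p 0.188), and its other probe by -2.06 (exact permutation p 0.0556, 0.381 adjusted). Fpr1 differed by -1.81, Itgam by -1.41 on both probes and Itgb2 by -0.89, with adjusted p-values from 0.309 to 0.521. With array weights the differences were -0.94 for Fpr1, -0.74 and -0.53 for the Itgam probes and -0.058 for Itgb2. Over the processing alternatives, Csf3r ran from -3.34 to -1.92 and Cxcr2 probe A_52_P559975 from -2.91 to -1.57, and neither was called. Without the array labelled KO-injury 5 the Csf3r difference was -2.56 and that of Itgb2 was -0.38, with adjusted p-values of 0.229 and 0.793. Those of Fpr1, the Itgam probes and Cxcr2 probe A_52_P559975 were then -1.10, -1.06, -0.73 and -2.68, none of them called.

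Within scan days this comparison changed its direction for 4 of the 6 surface probes. On day 1 the Myd88KO minus wild-type difference was 0.22 for Fpr1, 0.28 and 0.29 for the Itgam probes and 0.25 for Itgb2, and it stayed below 0 for Csf3r (-1.38) and Cxcr2 (-1.24). On day 2 it was -5.99 for Csf3r, -5.41 for Cxcr2, -4.85 for Fpr1, -3.95 and -3.96 for Itgam and -2.58 for Itgb2. Slide by slide, Fpr1, Cxcr2 probe A_52_P559975, both Itgam probes and Itgb2 were lower in Myd88KO on slides 1, 3 and 5. They were higher on slides 2 and 4. Csf3r was lower on all 5 slides, with differences of -4.63, -0.188, -3.88, -0.0661 and -7.34 on slides 1 to 5. For Itgb2 the differences were -1.73, 0.046, -0.513, 1.20 and -3.44 on slides 1 to 5. The Myd88KO arrays of slides 1, 3 and 5 were also those with Scgb1a1 at 4.79, 2.72 and 7.56. A fit of the 8 arrays of day 2 alone, chosen after the values were seen, called 5 member probes lower in injured Myd88KO, where 2.95% of all probes were called lower. The KO-injury arrays of day 2 are replicate 1 and the array labelled KO-injury 5. Without the latter 1 array remains, with no test, and on its slide the differences were -4.63 for Csf3r, -5.15 for Cxcr2, -3.20 for Fpr1, -3.84 and -2.81 for Itgam and -1.73 for Itgb2. The corresponding fit of day 1 called none of the 8, and 0.249% of all probes.

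The test of whether the response to injury depended on the genotype gave no call. For the 8 member probes the Myd88KO response minus the wild-type response ran from -1.47 (Fpr1) to -0.45 (Pglyrp1), none had an unadjusted p below 0.05, and the smallest adjusted p was 0.530 (Itgb2, -1.37, 95% interval -2.94 to 0.21). Over all tested probes 0% were called, 2703 had an unadjusted p below 0.05, and the smallest adjusted p was 0.179. For Csf3r the interval ran from -3.77 to 1.12 and for Fpr1 from -4.06 to 1.12. Responses several-fold smaller in Myd88KO and responses of equal size were thus both within the intervals. Without the array labelled KO-injury 5 the difference of responses was -0.86 for Itgb2, -0.66 for Csf3r and -0.77 for Fpr1, with adjusted p-values of 0.620, 0.833 and 0.811. For Itgam probe A_52_P669155 it was then -0.173. Over the arrays left out in turn, the other Itgam probe ran from -1.43 to -0.652 and Cxcr2 probe A_52_P559975 from -1.85 to -0.657. Pglyrp1 ran from -0.646 to -0.302 and Mpo from -0.627 to -0.312, and no member probe was called. On day 2 alone the response of Itgam probe A_51_P103007 was called smaller in Myd88KO (-3.85, adjusted p 0.00335), where 0.188% of all probes were called lower. On day 1 alone the difference was 0.884 and was not called. The KO-injury arrays of day 2 are replicate 1 and the array labelled KO-injury 5. Without the latter 1 array remains, with no test, and on its slide the response was 3.49 in wild-type and -0.275 in Myd88KO.

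Granule genes outside the members included some that rose. Of 12 such genes, 7 were tested in wild-type injury and 3 rose: Chil3, a chitinase-like lectin also made by macrophages, by 4.68 ± 0.80 (SE); Lcn2, the siderophore-binding lipocalin 2 that epithelium also makes, by 3.62 ± 0.67; and Mmp9, gelatinase B of the tertiary granules, by 2.22 ± 0.46 (adjusted p 0.00120, 0.00207 and 0.00419 in limma). Mmp8, neutrophil collagenase, was well above background on 0 of 5 WT-control and 5 of 5 WT-injury arrays and was at least 3.48-fold higher (2.13-fold without WT-injury 5), though too rarely detected to be tested. Lactoferrin (Ltf), also a gland product, was near 8.90 in WT-control and 8.86 in WT-injury. The azurophil proteases were dim. Ctsg differed by 0.32 (adjusted p 0.568), Prtn3 was well above background on 1 WT-control and 3 WT-injury arrays, and Elane, together with Bpi, was so on none of the 20. In Myd88KO injury 1 of the 7 rose, Chil3 by 4.46 (adjusted p 0.00829), and its 5 injured arrays (4.41, 4.63, 6.16, 6.65 and 2.29) were all above the uninjured ones. Lcn2 was the only gene of the 11 other lists called between injured genotypes, lower in Myd88KO by 3.95 on the log2 scale (adjusted p 0.00381), at -4.91, -1.30, -3.83, -1.21 and -4.83 in KO-injury against 1.43, -0.56, 0.07, 0.34 and 2.41 in WT-injury. Without KO-injury 5 the Lcn2 difference was -3.55 and was no longer called (adjusted p 0.0149), while the rise of Chil3 in Myd88KO was 5.09 (adjusted p 0.000309).

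Of 21 other neutrophil-associated genes, 20 were on the array by name, Ly6g being the exception, and 15 were tested. In wild-type injury 7 rose and none fell, and among those called the differences were largest for the C-type lectins Clec4e (5.96 ± 1.01) and Clec4d (5.55 ± 1.19), the formyl peptide receptor Fpr2 (4.28 ± 1.02) and the Fc receptor Fcgr4 (3.28 ± 0.56). Clec4e and Fpr2 were each well above background on 1 WT-control array, so the sizes of their differences and their rank are uncertain. Fpr2 passed the filter on the least possible number of arrays. Its adjusted p was 0.00917, and 0.0135 with every probe on the array tested, which is no call, while that of Clec4e was 0.00162. Itgax, another partner of Itgb2, rose by 1.58 (adjusted p 0.00617) with its brighter probe, while its second probe gave -0.71 (adjusted p 0.225). Itgal, the partner of Itgb2 in LFA-1 of lymphocytes, differed by 0.19 (adjusted p 0.773). Also not called in wild-type injury, in the fit without KO-injury 5, were S100a8 (3.9), S100a9 (2.77), Il1r2 (0.999), Stfa1 (0.141), Stfa3 (-0.0214) and Cd177 (-1.05). Further Stfa1 probes gave 0.67 and -0.03. In Myd88KO injury none of the 15 was called, and without KO-injury 5 Retnlg (4.20, adjusted p 0.00510) and Clec4e (4.80, adjusted p 0.00250) were called, where 1.87% of all probes were called higher. Retnlg was named after its values were seen. The pan-leukocyte gene Ptprc differed by 1.20 in wild-type and 0.99 in Myd88KO (adjusted p 0.108 and 0.261), and its second probe by 1.47 and 1.26 (adjusted p 0.0348 and 0.123).

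Among 11 ligands and growth factors, 7 were tested, and 1 rose in wild-type injury. It was Ppbp, a CXCR2 ligand stored in platelets, at 6.10 ± 0.96 (SE; adjusted p 0.000733). In Myd88KO injury its difference was 3.38 (adjusted p 0.0586) and none of the 7 was called, while without KO-injury 5 Ppbp (4.17, adjusted p 0.00573) and Anxa1 (0.955, adjusted p 0.00296) were called higher. Cxcl1 differed by 0.81 (adjusted p 0.541), Cxcl5 by -0.70 (adjusted p 0.559) and Icam1, the endothelial partner of CD11b/CD18, by 0.28 (adjusted p 0.384). Cxcl3, named after its values were seen, was higher by 3.48 ± 1.26 in wild-type and 2.18 ± 1.26 in Myd88KO (adjusted p 0.0771 and 0.357) and was not called. Cxcl2 was well above background on 1 WT-control and 4 WT-injury arrays and was not tested. Csf3, the ligand of Csf3r, was so on 1 array of the 20, WT-injury 5. Of the 5 myeloid transcription factors on the array 3 were tested and none was called.

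Among markers of other blood and immune cells, calls in wild-type injury were limited to macrophage and platelet genes, and none was made in Myd88KO injury. All 10 macrophage markers were well above background on every array, and 5 rose in wild-type injury, Cd68 by 3.27 ± 0.53, Adgre1 by 2.03 ± 0.42, C1qa by 1.78 ± 0.31 and Csf1r by 1.55 ± 0.36 among them. For Csf1r, 2 further probes gave 1.52 and 1.18 and were not called. The mean log2 level of the 10 ran from 0.19 to 0.65 in WT-control, 1.47 to 2.68 in WT-injury, 0.04 to 0.94 in KO-control and 0.27 to 1.93 in KO-injury. Cd68 was at -0.27, 2.52, 0.65, 2.32 and -1.27 in KO-injury, with replicates 2 and 4 highest and 5 lowest as for Itgb2. The platelet chemokine gene Pf4 was the only one of 7 tested erythroid and platelet markers to rise (2.52 ± 0.55). None of the 6 mast cell markers, of the 5 tested T, NK and B cell markers or of the 2 tested eosinophil markers was called in wild-type injury, and the eosinophil genes Epx and Il5ra were well above background on no array, while Siglecf, well above background on all 5 WT-injury and no WT-control arrays, was at least 2.66-fold higher. The part of platelets in the levels of the members was not tested.

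**Figure D5:**
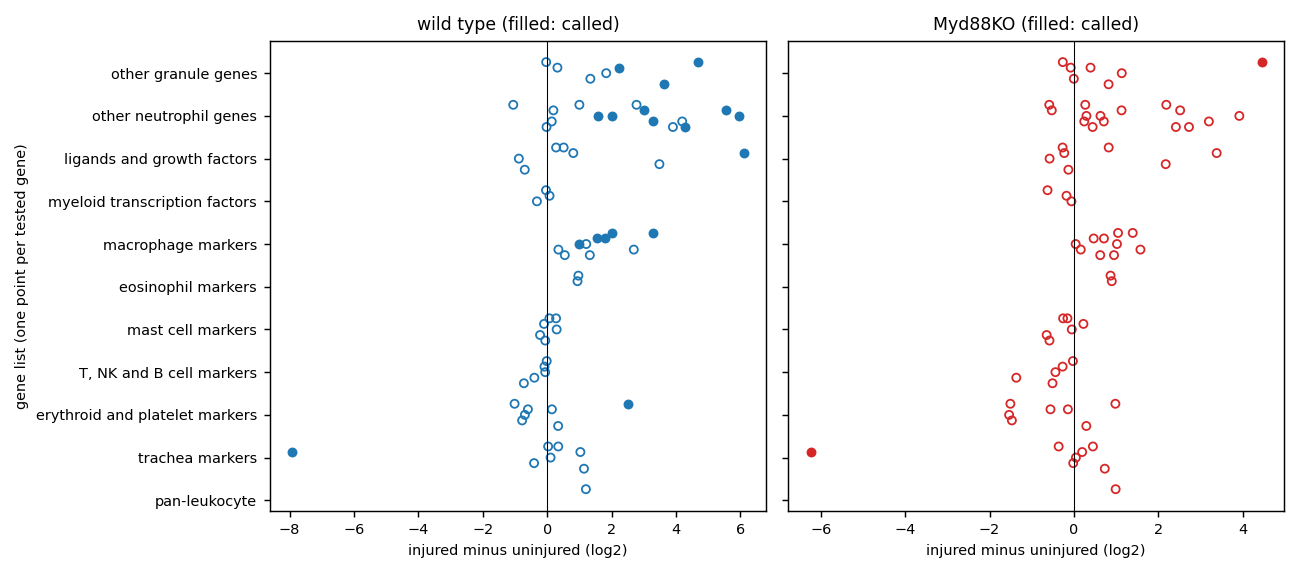
Difference between injured and uninjured tracheas for the tested genes of the other lists, in log2 units, 1 point per gene, in wild-type (left) and Myd88KO (right); filled points were called at an adjusted p below 0.01. In wild-type the granule, other neutrophil and macrophage lists hold 3, 7 and 5 genes called higher, in Myd88KO Chil3 alone was called higher, and Scgb1a1 is the filled point at the far left of both.

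The 5 probes outside the members whose profile over the 20 arrays was most like the mean standardised profile of the 8 tested member probes were those of Bcl2l11 (Pearson r 0.969), Acod1 (0.967), Emp3 (0.963), Cd300lf (0.963) and the probe A_51_P144143, which carries no gene name here (0.962). Bcl2l11 encodes the BH3-only protein Bim and Acod1 the enzyme that makes itaconate in activated myeloid cells. With the group means removed, r was 0.948, 0.945, 0.935, 0.923 and 0.942. The probes were picked by their r over the same arrays, which contains the spread within groups, so these values are no separate check. These 20 arrays share their slides and include the split KO-injury group, and the values are descriptive.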

How the data were processed

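RNA of 20 whole mouse tracheas, 5 per group, was measured on one-colour Agilent arrays, and groups were taken from the sample labels. The authors deposited scanner output of Agilent Feature Extraction 9.5.1.1 (named in the file headers), and the intensity used here is its processed signal, background-subtracted by that software. The authors' table of linear intensity values, nearly equal to the scanner signals, was used as an alternative only. Here, log2 intensity was taken relative to the 75th percentile of each array. Control spots and spots marked as outliers were left out, and spots of the same probe were averaged. Probes well above background on at least 10 of 20 arrays were tested with limma 3.58.1 in R 4.3.3, in 1 fit of all 20 arrays with 5 contrasts and Benjamini-Hochberg adjustment, called below 0.01. Intervals are 95%. The 3 untested member probes were compared by exact permutation. "At least" folds and lower limits set the dim group at the lowest signal well above background, and hold only for the scanner software's background subtraction. They concern group means and make no allowance for the spread between arrays. The fit was tested on simulated data.

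The members and gene lists were chosen with earlier results of these data known. Named were all member probes, at most 4 called genes with the largest wild-type difference per list, undetected defining markers, and fixed partners and ligands of members. Scgb1a1, Mmp8, Siglecf, Cxcl3 and Retnlg, and the fits by scan day, were chosen after values were seen. Where a gene had several probes, 1 was taken and any disagreement is given. Whether arrays with the same number deviate together was checked over 30 pairs from different groups, with correlations from -0.262 to 0.476 (median 0.242), against a median of -0.08 over 120 pairs with different numbers. The number is the slide, so the replicate block is a slide block. Alternatives changed the background correction, normalization, filter, samples fitted, blocks and weights, and left out each array in turn.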

Additional observations from a re-analysis of the deposited data

Results flagged for a closer look

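Single tracheas stood apart from the other 4 of their group in 6 of 44 groups of member values examined, by Dixon's ratio of the gap to the range (critical value 0.71 for 5 values), which chance exceeds in about 1 of 20 groups. WT-injury 5 was such an array 3 times. Its Camp level of -4.13 was the one Camp value above background in that group, with the nearest at -6.78 (ratio 0.81). Its Ngp level was -5.36 with the nearest at -6.83 (ratio 0.769), although no Ngp value was well above background. Its Csf3r level was 1.21 with the nearest at -0.25 (ratio 0.712). KO-control 5 stood high for Mpo at -3.18, nearest -3.91 (ratio 0.717), and for Cxcr2 probe A_52_P559975 at -3.67, nearest -5.81 (ratio 0.733). KO-injury 1 stood low for Mpo at -4.70, nearest -4.07 (ratio 0.758).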

How the results depend on the processing

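The number of arrays and the signal over background limit the precision, most of all for Camp, Ngp and the uninjured levels of Csf3r, Fpr1 and Cxcr2. With replicate number (slide) as a block, 3 member probes were called in wild-type injury and none elsewhere, and 1 probe of the array was called for the difference of responses. Other settings moved counts more. In wild-type injury (1372 probes, 4 members), calls numbered 2106 with scan day as a block, 2599 with array weights, 3800 by the methods' one-way test without adjustment, 822 (1 member) on scan day 1 alone and 664 (2 members) on day 2 alone. In Myd88KO injury (98 probes, 0 members), they numbered 56 with median scaling, 60 without the filter, 361 with scan day as a block, 0 with only the groups compared, 1904 (5 members) with array weights, 0 by the one-way test with adjustment and 1275 without, 1061 (3 members) on day 1 and 0 on day 2. Between uninjured genotypes (100 probes, 0 members), they numbered 176 with array weights, 46 by the one-way test with adjustment and 743 (1 member, Itgb2) without, 62 on day 1 and 3 on day 2. Between injured genotypes (99 probes, 0 members), they numbered 38 with only the groups compared, 21 by the one-way test with adjustment and 602 without, 65 on day 1 and 1251 (5 members) on day 2. For the difference of responses (0 probes), they numbered 2 with scan day as a block, 3 with array weights and 148 (1 member, Itgam probe A_51_P103007) on day 2. Leaving out each array in turn gave 665 to 1843 probes and 2 to 5 members in wild-type injury, with 2 members without WT-control 2, WT-injury 1, WT-injury 2 or WT-injury 5. It gave 6 to 1075 probes and 0 to 3 members in Myd88KO injury, with 6 probes without KO-injury 2. It gave 73 to 108 probes between uninjured genotypes, 77 to 120 between injured genotypes and 0 to 3 for the difference of responses, with 0 members in each. The cause of these changes was not tested.

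Directions turned in some settings, none of them for a difference that was called with all 20 arrays. On day 2 alone Pglyrp1 turned to -0.693 in wild-type injury, and Cxcr2 probe A_52_P559975 to -0.795, Itgam to -0.311 and -0.373 and Itgb2 to -0.290 in Myd88KO injury. Mpo turned to 0.0982 in Myd88KO injury on day 1. Between uninjured genotypes Fpr1 turned to 0.0215 without WT-control 1, in a range of -0.512 to 0.0215 over the arrays left out. Between injured genotypes Pglyrp1 turned to 0.0169 with quantile normalization, 0.0232 without WT-injury 2, 0.0156 without WT-injury 4 (range -0.285 to 0.0232 over the arrays left out) and 0.585 on day 2, and on day 1 Mpo turned to 0.108, Fpr1 to 0.224, Itgam to 0.279 and 0.294 and Itgb2 to 0.246. For the difference of responses, Itgam probe A_52_P669155 turned to 0.0799 with array weights, Pglyrp1 to 0.509 on day 2, and on day 1 Csf3r to 0.059, Cxcr2 to 0.754, Fpr1 to 0.42 and Itgam to 0.884 and 1.15.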
